A study of Drosophila melanogaster with 3 samples.

Results

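The nuclear genes for the subunits of oxidative phosphorylation were examined in chromatin immunoprecipitation sequencing (ChIP-seq) data for salr, a zinc finger transcription factor of the spalt family. They were taken by symbol from the Ensembl BDGP6 annotation, as the protein-coding genes whose symbol begins with ND-, with COX and a digit, with UQCR-, with ATPsyn or with SdhA to SdhD. This gave 87 genes of 13968 protein-coding genes on the nuclear chromosome arms, 40 of complex I, 7 of complex II, 9 of complex III, 16 of complex IV and 15 of complex V. All samples were whole Drosophila melanogaster prepupae (24 hour), both sexes pooled, of a transgenic line that stably carries salr with green fluorescent protein at its C terminus. There were 3 biological replicates, called libraries 1 to 3 by their replicate numbers, and 1 group. The labels name a TF ChIP-seq assay and salr as antibody target, but their free text names each library an input control. They do not say whether the tagged copy adds to the salr dose. In whole animals, binding in few cells and weak binding in many cells cannot be told apart.

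Oxidative phosphorylation is carried out in the inner mitochondrial membrane. Complex I (NADH dehydrogenase) and complex II (succinate dehydrogenase) pass electrons to ubiquinone, complex III passes them to cytochrome c, and complex IV reduces oxygen. Complexes I, III and IV pump protons, and the proton gradient drives complex V, the ATP synthase. Many Drosophila respiratory genes also have a duplicate, given the ending L in its symbol, and duplicates of this kind are known for testis-biased expression. The spalt genes are known in the fly for wing, eye, tracheal and oenocyte development and, in the case of salm, for the fate of fibrillar flight muscle, a tissue rich in mitochondria.

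The sequences under the peaks that the results turn on are shown first. The first 5 lines give 200 bases centred on the peak summit, read on the strand of the named gene. The last line gives COX7A, a main copy without a peak in the authors' irreproducible discovery rate (IDR) list. It runs from 150 bases before a transcription start site (TSS), the downstream one of the gene's 2 TSSs. Each was read from the Release 6 reference, which is the dm6 assembly. Capitals mark TATCGATA, the only one of the 7 words searched that these stretches hold.
ND-ASHI, chrX:6679252-6679451, minus strand: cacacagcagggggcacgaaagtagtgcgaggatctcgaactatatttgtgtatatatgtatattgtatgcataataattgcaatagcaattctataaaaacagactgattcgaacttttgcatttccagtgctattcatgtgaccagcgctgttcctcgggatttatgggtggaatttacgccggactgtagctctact
ND-51, chr2L:6062795-6062994, minus strand: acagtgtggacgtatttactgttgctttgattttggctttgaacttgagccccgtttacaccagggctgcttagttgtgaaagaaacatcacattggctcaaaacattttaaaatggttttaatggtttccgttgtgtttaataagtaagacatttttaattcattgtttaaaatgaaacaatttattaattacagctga
ATPsynE, chr3R:14326883-14327082, plus strand: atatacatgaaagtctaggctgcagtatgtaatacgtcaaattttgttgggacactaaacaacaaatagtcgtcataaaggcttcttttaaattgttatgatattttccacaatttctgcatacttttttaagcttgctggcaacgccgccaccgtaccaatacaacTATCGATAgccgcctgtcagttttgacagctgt
UQCR-11, chr3L:25120528-25120727, plus strand: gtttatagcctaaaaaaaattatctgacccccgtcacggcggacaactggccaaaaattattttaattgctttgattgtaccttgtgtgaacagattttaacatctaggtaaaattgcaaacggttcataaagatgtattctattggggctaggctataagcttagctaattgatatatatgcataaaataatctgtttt
COX7AL2, chr2L:2193541-2193740, minus strand: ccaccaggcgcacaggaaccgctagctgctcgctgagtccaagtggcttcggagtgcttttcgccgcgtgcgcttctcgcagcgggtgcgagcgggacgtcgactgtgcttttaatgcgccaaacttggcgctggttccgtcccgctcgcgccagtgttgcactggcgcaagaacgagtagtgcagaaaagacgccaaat
COX7A, chr3R:8340850-8341049, minus strand: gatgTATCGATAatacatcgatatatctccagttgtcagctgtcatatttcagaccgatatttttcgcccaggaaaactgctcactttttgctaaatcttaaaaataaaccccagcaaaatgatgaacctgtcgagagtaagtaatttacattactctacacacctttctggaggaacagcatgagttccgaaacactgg

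No summit window shown for ND-ASHI, ND-51, UQCR-11 or COX7AL2 held any of the 7 words searched. The ATPsynE window had TATCGATA, the DNA replication-related element of many Drosophila housekeeping promoters. The window of the second ATPsynE peak, which is not printed, had AATATT and GAGAGA. COX7A carried TATCGATA as well, without an IDR peak. GC content was 32.5% at ND-51, 33% at UQCR-11, 38% at ATPsynE and 41% at ND-ASHI, against 61.5% at COX7AL2, which was the exception.

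Few respiratory genes had a salr peak of the IDR list at their start. The irreproducible discovery rate (IDR) is a measure of how well replicates repeat peaks. The authors' IDR list holds 3839 peaks, which are exactly the 3839 strongest of their list pooled over all libraries. Entry to it thus followed pooled signal, and a listed peak need not be found in every library. A gene was counted where the summit of such a peak lay within 1000 bp of any of its TSSs. This held for 8 of 87 respiratory genes (9.20%, exact interval 4.05% to 17.3%), beside 14.8% of all protein-coding genes. The 8 were ND-ASHI, ND-MWFE, ND-51, ND-75 and ND-SGDH of complex I, UQCR-11 of complex III, COX7AL2 of complex IV and ATPsynE of complex V. The interval includes the share of all protein-coding genes, so the count was near the background. Intervals here cover counting error only. Neighbouring genes can share a peak and are not independent.

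The count rested on the libraries to different degrees. Among the 3839 strongest peaks of each library, 10 members (11.5%) had a summit in library 1, 3 (3.45%) in library 2 and 8 (9.20%) in library 3, against 16.5%, 13.8% and 13.0% of all protein-coding genes. The members lay below all protein-coding genes in each library, with a mean difference of −6.40 percentage points (8.05% ± 4.14 against 14.4% ± 1.85, SD, n = 3). The difference was smaller, at −2.46 points, with the 1000 strongest peaks and −3.99 with all peaks of each library. An exact two-sided sign-flip permutation test over libraries gave p = 0.25, the smallest that 3 libraries allow. Only ND-ASHI and ND-MWFE were hit in the strongest peaks of all 3 libraries. The other gene of library 2 was COX7AL2, through a summit other than its IDR one. Without library 1, or without library 3, 2 members kept a summit strong in both remaining libraries, against 7.97% and 9.10% of all protein-coding genes. Without library 2, 6 did (6.90%, against 9.99%).

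Ribosomal protein genes, the other large set of genes for abundant housekeeping machinery, lay above the respiratory genes in the strongest peaks of every library. Respiratory genes had a summit in the strongest peaks in 8.05% ± 4.14 of cases, against 68.6% ± 7.57 of 88 cytoplasmic ribosomal protein genes (SD, n = 3). The difference was −65.8 points in library 1, −61.3 in library 2 and −54.4 in library 3. Mitochondrial ribosomal protein genes, which also act in the mitochondrion, stood at 19.6% ± 3.16 of 73 genes (SD, n = 3), and the difference was −11.8, −14.4 and −8.61 points. Neither difference can pass a test over 3 libraries (exact two-sided sign-flip permutation p = 0.25, the smallest possible). In the IDR list the counts were 8 of 87 respiratory genes, against 14 of 73 mitochondrial and 62 of 88 cytoplasmic ribosomal protein genes. The mitochondrial share was 19.2% (exact interval 10.9% to 30.1%), which includes the 14.8% of all protein-coding genes. The cytoplasmic share was 70.5%. At any strength the mitochondrial set was close to the respiratory genes. The pooled list held 37.9% of respiratory genes, against 39.7% of mitochondrial and 81.8% of cytoplasmic ribosomal protein genes, beside 44.3% of all protein-coding genes. In the whole lists of libraries 1, 2 and 3 the respiratory genes stood at 51.7%, 49.4% and 29.9%, against 60.3%, 65.8% and 28.8% of mitochondrial ribosomal protein genes, so the order turned in library 3. All protein-coding genes stood at 53.6%, 50.6% and 38.8%.

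**Figure D1:**
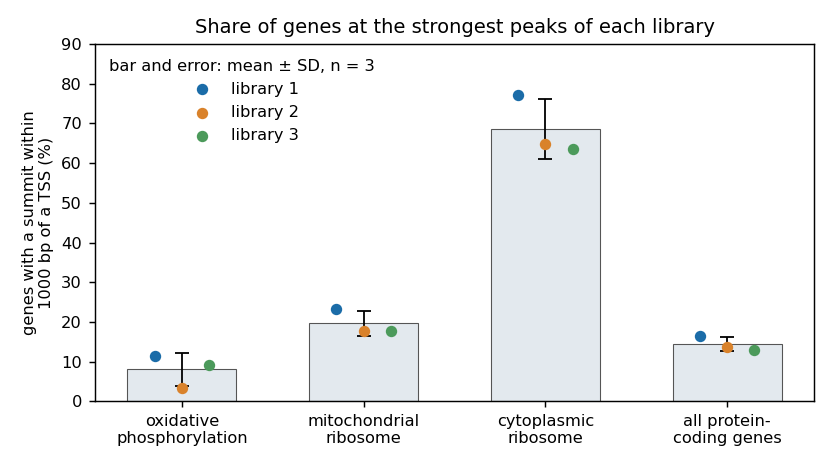
Share of genes with a summit within 1000 bp of a TSS among the 3839 strongest peaks of each library, in percent, for 87 oxidative phosphorylation genes, 73 mitochondrial and 88 cytoplasmic ribosomal protein genes and 13968 protein-coding genes. Points are libraries and bars and error bars are mean ± SD (n = 3). In each library the respiratory genes sit below the other groups.

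The respiratory genes often lie close to the start of another gene, and most of their peaks were shared with one. Another protein-coding gene had a TSS within 1000 bp of one of their own for 51 of 87 members (58.6%), against 42.8% of all protein-coding genes. Of those 51 members, 7 had an IDR summit (13.7%), beside 21.8% of all protein-coding genes with such a neighbour. Of the 36 without one, only UQCR-11 did (2.78%), beside 9.50%. The share was also 7.32% of the 82 members with 1 or 2 TSSs, beside 12.7% of such protein-coding genes. These backgrounds were added after the data were seen. In each of them the members' share was again the lower one, which was not tested. Of the 8 members with a peak, 6 shared their strongest peak with another protein-coding gene (75%, against 56.1% of all protein-coding genes with one), and for 4 of the 8 the member's own TSS was the nearest to that summit (50%, against 69.9%).

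The 8 genes had 9 IDR peaks between them. Relative signal stands for a peak's deposited signal in a library over the median of all peaks listed for that library, taken where the library has a summit within 100 bp. Of the 9 peaks, 7 lay upstream of the member's nearest TSS, 5 lay within 250 bp of it, and 7 were matched in all 3 libraries. The 9 peaks had a median relative signal of 3.28, against 3.61 for the 1906 IDR peaks within 1000 bp of any TSS. The 3 above that value were ND-ASHI, ND-MWFE and UQCR-11, the last by a mean over libraries 1 and 3 only. By pooled signal UQCR-11 ranked 2545, after the median rank of 1749 of those 1906 peaks.

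The strongest was the peak of ND-ASHI (FBgn0029888), a membrane-arm accessory subunit of complex I, whose sequence opens the set above. It lies on X from 6679232 to 6679480, with the summit 234 bp upstream of the TSS, and ranked 174 among the 3839 IDR peaks. Relative signal was 10.3 in library 1, 11.8 in library 2 and 13.9 in library 3 (12.0 ± 1.81, SD, n = 3). Each of these was far above the median IDR promoter peak, and the mean exceeded 93.4% of such peaks. The same summit lies 288 bp upstream of Fum1, a fumarase gene of the tricarboxylic acid (TCA) cycle transcribed in the other direction, so the peak sits in a start region shared by 2 genes of mitochondrial metabolism.

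The ND-MWFE peak (FBgn0085468) came second, at IDR rank 541. ND-MWFE encodes a small membrane subunit of complex I. The peak lies on 2R from 13158391 to 13158599, 148 bp upstream of ND-MWFE but only 73 bp upstream of TppII, a peptidase gene, whose TSS is the nearer one. Relative signal was 8.64, 3.88 and 9.26 in libraries 1, 2 and 3 (7.26 ± 2.94, SD, n = 3), with library 2 the low one.

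The catalytic arm of complex I had 2 peaks of middle strength. At ND-51 (FBgn0031771), the flavin-binding subunit that oxidises NADH, the peak ranked 1780 and lies on 2L from 6062723 to 6063066, 138 bp upstream and 94 bp upstream of the nearer TSS of CG13994. Relative signal was 5.32, 1.71 and 3.32 (3.45 ± 1.81, SD, n = 3). At ND-75 (FBgn0017566), an iron-sulphur subunit, the peak ranked 1965, with its summit 729 bp upstream and closer to CG1632. Relative signal was 3.75, 2.04 and 4.06 (3.28 ± 1.09, SD, n = 3). In both genes library 2 was again the lowest.

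The remaining complex I gene, ND-SGDH (FBgn0011455), a membrane-arm accessory subunit, had a weak and distant peak. It ranked 3533 and lies on 3L from 12139310 to 12139653, 898 bp upstream of ND-SGDH, with the TSS of another gene nearer to the summit. It was matched in libraries 1 and 2 only, at 2.40 and 1.07, and library 3 had another summit within 1000 bp of ND-SGDH, at 2.43. The mean was above 0.840% of IDR promoter peaks, so it stood among the weakest of them.

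Outside complex I, ATPsynE (FBgn0038224), a membrane subunit of the ATP synthase, had 2 IDR peaks. The stronger ranked 2418, on 3R from 14326811 to 14327154, with its summit 36 bp downstream of the TSS. Relative signal was 2.91, 1.71 and 3.13 (2.58 ± 0.765, SD, n = 3). The weaker, 838 bp downstream, gave 2.95, 1.25 and 2.33. Its summit lies past the annotated end of ATPsynE, with the TSS of another gene nearer to it. Both peaks were lowest in library 2.

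UQCR-11 (FBgn0260008), a small subunit of complex III, had a peak with no other gene's TSS within 1000 bp of the summit, which among the 9 held only here and at COX7AL2. It ranked 2545, on 3L from 25120456 to 25120799, 81 bp upstream. Relative signal was 3.97 in library 1 and 3.52 in library 3, and library 2 had no summit there. COX7AL2 (FBgn0085201), a duplicate of the complex IV subunit COX7A, had a peak at rank 3496 on 2L from 2193469 to 2193812. Its summit was 631 bp upstream of the nearest of the gene's 3 TSSs, but inside the gene's annotated span (2192525 to 2197912, minus strand). Relative signal was 2.01, 2.02 and 2.12 (2.05 ± 0.0616, SD, n = 3), the closest agreement of the 7 peaks matched in every library, and the mean exceeded only 4.62% of IDR promoter peaks.

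**Figure D2:**
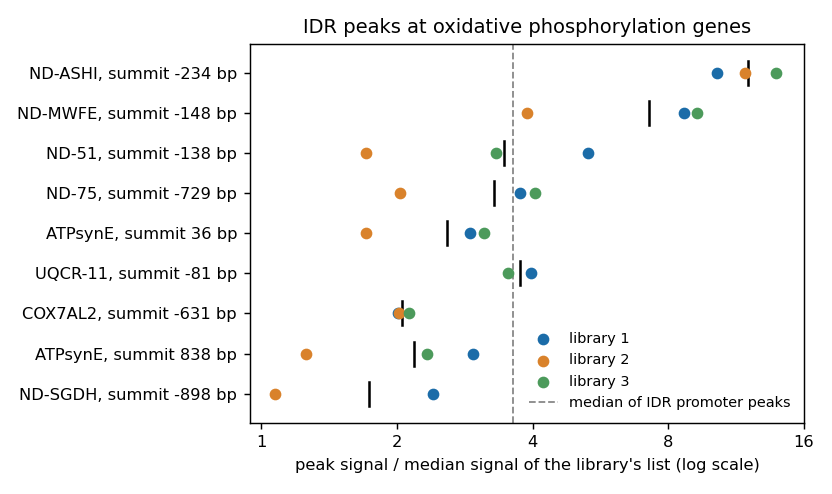
Relative signal (peak signal divided by the median of the library's list, log axis) of the 9 IDR peaks at oxidative phosphorylation genes, with the summit's distance from the gene's nearest TSS (negative is upstream). Points are libraries, black ticks are means over the matched libraries, and the dashed line is the median of IDR promoter peaks, 3.61. The means of ND-ASHI and ND-MWFE, 12.0 and 7.26, are the highest, while ND-MWFE in library 2, at 3.88, lies within the range of the others.

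Several members lay close to the limit of 1000 bp. The members just inside it were COX7AL2 at 631 bp, ND-75 at 729 bp and ND-SGDH at 898 bp. Just outside were ATPsynCF6 at 1007 bp, ND-39 at 1600 bp, ND-B22 at 1861 bp and COX7C at 1908 bp. The median distance from a member to its closest IDR summit was 7288 bp, against 6620 bp for mitochondrial and 46.5 bp for cytoplasmic ribosomal protein genes and 11385 bp for all protein-coding genes. So the members' median was shorter than that of all protein-coding genes while fewer of them had a summit at the start, a description with no test. Summits farther than 10000 bp were the closest ones for 42.5% of members, 38.4% of mitochondrial ribosomal protein genes and 53.8% of protein-coding genes.

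**Figure D3:**
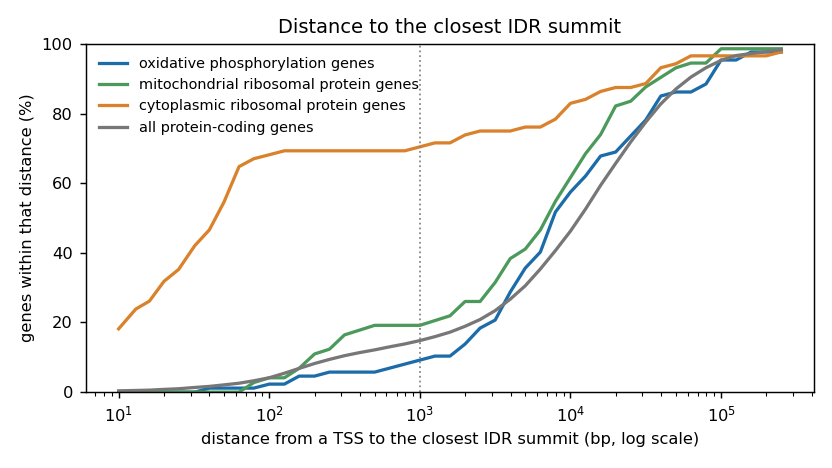
Share of genes (percent) whose closest IDR summit lies within a given distance of a TSS (bp, log axis), for oxidative phosphorylation genes and 3 comparison groups, with 1000 bp marked by the dotted line. At 1000 bp the respiratory genes are at 9.20% and all protein-coding genes at 14.8%, and the curves cross farther out.

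No complex stood apart where the IDR list was counted. Complex I had 5 of 40 genes with a peak (12.5%, exact interval 4.19% to 26.8%), complex III had 1 of 9 (11.1%), complex V 1 of 15 (6.67%) and complex IV 1 of 16 (6.25%). Complex II had 0 of 7, which allows a share of up to 41.0% (exact interval). The intervals overlap and all of them include the 14.8% of all protein-coding genes. The complex I count became 3 within 500 bp, 1 with the nearest gene only, 2 without library 1 or library 3 and 4 without library 2. The complex IV gene was lost within 500 bp and without any 1 library, and those of complexes III and V without library 1 or library 3. By library, the strongest peaks hit 6, 2 and 6 of the 40 complex I genes in libraries 1, 2 and 3 (15%, 5% and 15%). All protein-coding genes stood at 16.5%, 13.8% and 13.0%. No other complex had more than 2 hits in a library, but each has fewer genes. In library 1 the shares were 14.3% for complex II, 11.1% for complex III, 0% for complex IV and 13.3% for complex V.

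At any strength the order of the complexes was another one. The pooled list, made by the authors from the alignments of all libraries, holds 30000 peaks including weak ones and background. It had a summit at 33 of 87 members (37.9%), beside 44.3% of all protein-coding genes. Complex II had 5 of 7 (71.4%, exact interval 29.0% to 96.3%), complex I 16 of 40 (40%), complexes III and V 33.3% each and complex IV 4 of 16 (25%). In the whole lists of libraries 1, 2 and 3, 45, 43 and 26 members had a summit (51.7%, 49.4% and 29.9%), beside 53.6%, 50.6% and 38.8% of all protein-coding genes. For complex II the count was 5, 3 and 2 of 7.

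The IDR list is exactly the 3839 strongest pooled peaks, so a member outside it must rank after 3839. Of the 25 members with a pooled peak outside the IDR list, the strongest had rank 3893 and the median rank was 13608. Signal relative to the pooled median ran from 0.676 to 2.46 with a median of 1.06, and the weakest IDR peak, at 2.49, sets the upper limit of that range. The member nearest to the limit was ND-42, a complex I subunit, with its summit 224 bp upstream and the closest IDR summit 34550 bp away. Its best relative signal within 1000 bp of the TSS was 2.22 in library 1, 1.08 in library 2 and 2.84 in library 3. It was followed by ATPsyngamma (pooled rank 5525), the rotor stalk of the ATP synthase, then COX7C (6006), ATPsynF (6038) and ND-15 (6441).

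Among the succinate dehydrogenase genes, SdhC had the strongest pooled peak, at rank 7582. SdhD, which with SdhC anchors the complex in the membrane, was at 15156 and SdhB, the iron-sulphur subunit, at 21434. Their duplicates SdhCL and SdhAL were at 20316 and 24151. SdhA, the flavoprotein, had no pooled summit. Its relative signal was 2.53 in library 1 and 1.73 in library 2, and library 3 had no summit there.

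The other members with a pooled peak below the IDR threshold were ND-AGGG, ND-B22, ND-B8, ND-MNLL, ND-51L2, ND-B14, ND-39, ND-PDSW and ND-30 of complex I, UQCR-C1 and UQCR-C2 (the core subunits of complex III), COX7B and COX6AL2 of complex IV, and ATPsynC (the rotor ring) and ATPsynD of complex V. A further 28 members had a summit in the list of at least 1 library only. The highest of these was ATPsynCF6 in library 1, with a relative signal of 3.05, against 1.07 in library 2 and 2.27 in library 3. From complex V the group held ATPsynbeta, the catalytic subunit, and ATPsynB, ATPsynO, ATPsyndelta and ATPsynG. It also held COX5A, COX5B, COX6B, COX7A and COX8 of complex IV, and ND-13A, ND-13B, ND-19, ND-24, ND-B14.5B, ND-B15, ND-B17.2 and ND-MLRQ of complex I. SdhA, UQCR-14 and UQCR-6.4 belonged to it too, as did the duplicates ND-20L, ND-51L1, UQCR-11L, UQCR-6.4L, COX7CL and ATPsynGL.

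For 26 members no list held a summit within 1000 bp. From complex I these were ND-18, ND-20, ND-23, ND-49, ND-ACP, ND-B12, ND-B14.5A, ND-B14.7, ND-B16.6, ND-B17, ND-B18 and the duplicates ND-24L, ND-49L and ND-B14.5AL. The others were UQCR-Q, UQCR-14L, SdhBL, COX4, COX4L, COX5BL, COX6AL, COX6CL, COX7AL, ATPsynCF6L, ATPsynbetaL and ATPsynepsilonL. ND-49 and ATPsynbeta lie on chromosome 4, where the IDR list has 1 peak and the pooled list 13.

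**Figure D4:**
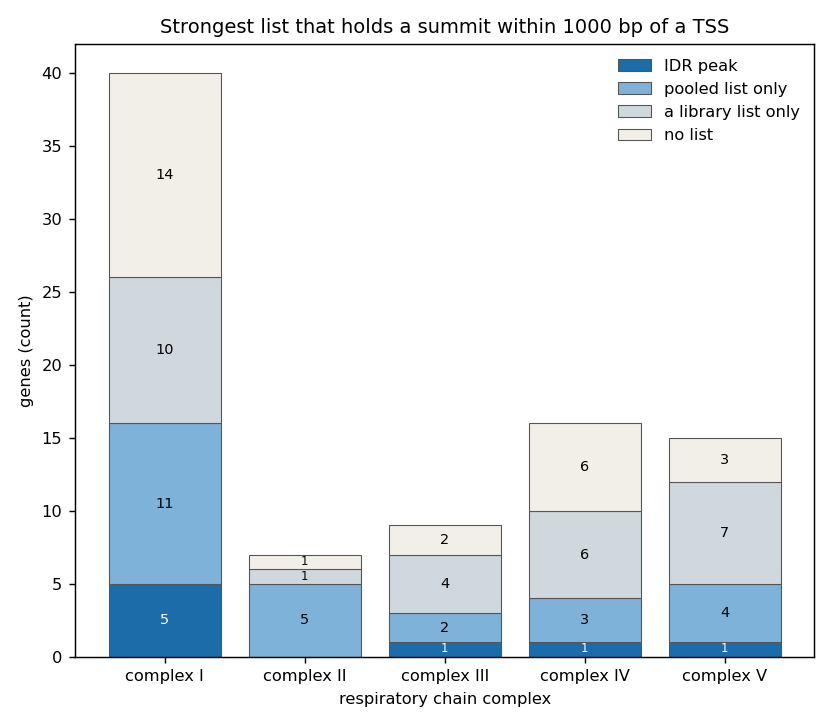
Number of oxidative phosphorylation genes of each complex, by the most stringent list that holds a summit within 1000 bp of a TSS (IDR, pooled, a library, none). Numbers in the bars are genes. IDR peaks are found for 5 genes of complex I, 1 each of complexes III, IV and V, and none of complex II, whose genes mostly have a weaker pooled peak.

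Duplicates with L in the symbol had few peaks, and so had their main copies. The rule gave 20 duplicates with a main copy among the members, which numbered 18 because COX7A and ND-51 each have 2. No symbol ended in T. An IDR peak was present at 1 of 20 duplicates (5%, exact interval 0.127% to 24.9%) and 2 of 18 main copies (11.1%, 1.38% to 34.7%), beside 14.8% of all protein-coding genes. In the pooled list the counts were 4 of 20 (20%) and 5 of 18 (27.8%), beside 44.3% of all protein-coding genes. Of the 45 members that are neither, 5 had an IDR peak (11.1%) and 23 a pooled one (51.1%). The order of main copies and these other members was not the same in every list. In the whole lists of libraries 1, 2 and 3 main copies stood at 72.2%, 38.9% and 33.3%, and the other members at 57.8%, 71.1% and 33.3%. All protein-coding genes stood at 53.6%, 50.6% and 38.8% in these lists.

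Within pairs no IDR peak was at both copies. In the pooled list 2 of 20 pairs had a peak at both, 2 at the duplicate only, 4 at the main copy only and 12 at neither. For the IDR list, 1 pair had a peak at the duplicate only, 3 at the main copy only and 16 at neither. The closest IDR summit lay 26640 bp from ND-51L1 and 6591 bp from ND-51L2, against 138 bp from ND-51. It lay 10001 bp from UQCR-11L, against 81 bp from UQCR-11. COX7AL2 was the reverse case, with 631 bp, against 6520 bp for COX7A, and the other duplicate COX7AL had its closest summit at 6283 bp. In the strongest peaks of libraries 1, 2 and 3 all protein-coding genes stood at 16.5%, 13.8% and 13.0%. Duplicates had 0, 1 and 0 genes hit there (1.67% ± 2.89, SD, n = 3), and main copies had 4, 0 and 2 (11.1% ± 11.1, SD, n = 3). The difference of duplicates from main copies, −9.44 points ± 13.7 (SD, n = 3), changed sign in library 2 (exact two-sided sign-flip permutation p = 0.5). Its size depended on the peaks taken. It was −1.85 points with the 1000 strongest peaks, −2.04 with the nearest gene only, and −3.06 without library 1 and −16.7 without library 2. With all peaks of each library it was −23.1 points, with duplicates at 30%, 20% and 25% and main copies at 72.2%, 38.9% and 33.3%, which is 1 direction in all 3 libraries (exact two-sided sign-flip permutation p = 0.25, the smallest possible). All protein-coding genes stood at 53.6%, 50.6% and 38.8%, so main copies were above that share in library 1 only and duplicates in none. A further 4 duplicates had no main copy under the symbol rule: COX6AL and COX6AL2 are duplicates of levy, COX6CL of cype and ATPsynepsilonL of sun. None of these 4 had an IDR peak, and COX6AL2 had a pooled one.

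The genes around the respiratory chain were counted in the same way. A list of 13 genes that the symbol rule does not match held subunits, carriers and Scox, an assembly factor of complex IV. Of the 13, 2 had an IDR peak (15.4%), namely Cyt-c-p and Cyt-c-d, the neighbouring genes for cytochrome c. Relative signal was 7.17 in library 1 and 4.36 in library 2 for Cyt-c-p, with no match in library 3 and the summit 944 bp downstream. It was 6.28, 3.18 and 9.18 in libraries 1, 2 and 3 for Cyt-c-d. A pooled peak was present for 9 of the 13 (69.2%), among them blw, the alpha subunit of the ATP synthase, and RFeSP, the Rieske protein of complex III. The list of TCA cycle genes also held Pdha, Pdhb and muc of the pyruvate dehydrogenase complex and the NADP-dependent isocitrate dehydrogenase gene Idh. Of its 15 genes found in the annotation, 5 had an IDR peak (33.3%) and 11 a pooled one (73.3%). The 5 were Fum1, Idh3g, mAcon1, Idh and Scsalpha1. Idh3g, a subunit of the NAD-dependent isocitrate dehydrogenase, stood at 8.17, 5.46 and 8.56 in libraries 1, 2 and 3. Of 12 genes for mitochondrial gene expression and biogenesis, 2 had an IDR peak (16.7%), mtSSB, the mitochondrial single-strand DNA binding protein, and clu, and 3 a pooled one (25%). The background was 14.8% of all protein-coding genes for IDR peaks and 44.3% for pooled ones. None of these short lists was tested.

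Promoters of respiratory genes were rich in A and T. In the 300 bases from 250 before to 50 after the TSS, mean GC content was 35.6% ± 6.34 over the 87 members (SD over genes) and 39.3% ± 7.83 over all protein-coding genes. The word AATATT was searched because mammalian SALL zinc fingers bind A/T-rich DNA. It was in 37 of 87 member promoters (42.5%), against 44.3% of cytoplasmic ribosomal protein promoters and 30.1% of all. It was in 0 of the 8 member promoters with an IDR peak and in 37 of the 79 without (46.8%). Among all protein-coding genes with an IDR peak it was in 30% of promoters. In the 300 bases around the summit it was in 2 of 9 member peaks (22.2%), against 31% of the 1906 IDR promoter peaks. At members with an IDR peak the share was thus the lower one in both windows, on few genes.

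Words of housekeeping and respiratory promoters were near their background. Both strands were read. TATCGATA was in 8 of 87 member promoters (9.20%, against 8.94% of all), none of which had an IDR peak, and in 29.5% of cytoplasmic ribosomal protein promoters. The promoter window was set by a single TSS per gene, and the TATCGATA of the ATPsynE summit window lay outside it. The nuclear respiratory gene element, a palindromic word described upstream of fly respiratory genes, was searched as TTACGTAA, TTATATAA and TTACATAA (or TTATGTAA). It was in 5 of 87 member promoters (5.75%, against 5.13% of all). The carriers were ND-30, ND-42, ND-49, ND-MNLL and ND-SGDH, of which ND-SGDH had an IDR peak. CACGTG was in 4.60% of member promoters (against 4.25%) and GAGAGA or TCTCTC in 6.90% (against 12.6%). No searched word contains another, and no word share was tested.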

How the data were processed

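ChIP-seq of whole prepupae was deposited as peak lists for 3 libraries, a pooled list and an IDR list. Per the notes deposited with the files, all are on dm6, the library and pooled lists used 1 shared control file, which was not analysed here, and the IDR list was derived from the other lists. The aligner, caller and IDR threshold were not given in the sources used here. As deposited, the signal is the authors' enrichment per peak on an unstated scale, used for rank within a list and, divided by the list's median, as relative signal. The deposited −log10 q-value has a plateau (11.3% of pooled peaks) and was not used. Library and pooled lists hold 30000 peaks each. No list carries read numbers, and the depth is unknown.

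Genes came from Ensembl release 115 (BDGP6.54) on arms 2L, 2R, 3L, 3R, 4, X and Y without transposable elements (18277 genes, 23694 TSSs). Where no canonical transcript is tagged, the most upstream TSS set the promoter window. Coordinates are 1-based. Cytoplasmic and mitochondrial ribosomal protein genes were taken by symbol (RpL, RpS or RpLP and sta, without the ending -like; mRpL or mRpS). Libraries were compared by their 3839 strongest peaks, with an exact sign-flip permutation test. No set test was run. Some sequences and neighbouring genes are not reported here. The peak-to-gene rule and word search were tested on simulated data. Named genes are the members with the strongest IDR peaks, peaks matched in under 3 libraries, both copies of duplicate pairs where either has an IDR peak, and the members without one by name and count. ND-42, SdhA, ATPsynCF6 and the word carriers were singled out after their values were seen. Members, gene lists and words were chosen with earlier results of these data known. The ribosomal sets, the backgrounds by neighbour and TSS number, GC content and the COX7A sequence were added after seeing the data. Python 3.11.15, numpy 2.4.6, scipy 1.17.1 and matplotlib 3.10.9 were used.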

Additional observations from a re-analysis of the deposited data

How the results depend on the processing

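Groups of libraries could not be compared, paired or unpaired, because there is only 1 group. The sign-flip tests used differences between gene sets within each library. The members' share stayed below that of all protein-coding genes in all 10 alternatives of distance, start site, assignment, peak set and left-out library. The start site alternative changed neither count, and the others largely reuse the same peaks, so the 10 are not independent. The 8 members with an IDR peak became 5 within 500 bp, 4 when only the nearest gene was counted, 3 in the stronger part of the IDR list, 33 in the pooled list, 2 with peaks strong in all 3 libraries and from 2 to 6 without a library. The count of 2064 protein-coding genes became 1181 in the stronger part, 6188 in the pooled list, 1052 with peaks strong in all 3 libraries, and from 1113 to 1396 without a library. The stronger part holds 1919 peaks, the set strong in all libraries 1844 and those without a library from 2022 to 2538. The 1 duplicate became 0 within 500 bp, in the stronger part, in the set strong in every library and with any library left out, and 4 for pooled peaks. The 2 main copies became 4 within 2000 bp, 1 with the nearest gene only, 1 in the stronger part, 5 in the pooled list, 0 with peaks strong in every library, and from 0 to 2 without a library. Word shares (members minus background, in points) changed sign at the 9 summits: AATATT −8.79 (12.5 in promoters), TTATATAA −2.36, TTACATAA −2.15, any respiratory element form −4.72, CACGTG −4.35 and GAGAGA 0.291. The promoter values cover 87 members and all promoters. The summit values cover only peaks of the 8 members with an IDR peak and 1906 IDR promoter peaks, so the gene set changed with the window. No member summit window held TTATATAA, TTACATAA or CACGTG. The cause of the sign changes was not tested. No assembly factor matched the symbol rule, so leaving these out changed nothing. With no depth in the files, its limits cannot be given.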
